A study of Mus musculus with 2 samples.

Results

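The goblet cell mucus genes are 8 transcripts that encode the secreted gel of the intestinal surface and proteins that build or accompany it: *Muc2*, *Tff3*, *Agr2*, *Clca3*, *Fcgbp*, *Spink4*, *Zg16* and *Muc13*. They were taken by symbol from a table of 18159 genes, and all 8 were listed, each above 0 FPKM in both libraries. FPKM scale a gene's fragments to transcript length and to how much of each library was mapped, so that levels can be compared between genes. The RNA was that of the tunica muscularis of the jejunum, the muscular coat of the gut, in mice 15 days old on a C57BL/6 background, and each genotype, *Dnmt1*-WT and *Dnmt1*-KO, was represented by 1 mRNA library. Both genotypes carried the smMHC Cre-eGFP/+ transgene, in which Cre recombinase and eGFP are driven by the *Myh11* promoter. The authors give smMHC Cre-eGFP/+ as the genotype of *Dnmt1*-WT mice. *Dnmt1*-KO mice also had both *Dnmt1* alleles floxed and deleted in smooth muscle cells (SMCs). However, the strain label of both samples names Dnmt1lox/lox, and a free-text note on both names the knockout. Cre from this promoter is not aimed at the epithelium, and by the methods the RNA was taken from muscle that had been stripped of mucosa. RNA of several mice of both sexes stood behind each genotype, and how it was combined is not given in the sources used here. The targeted gene, *Dnmt1*, had 11.58 FPKM in *Dnmt1*-WT and 7.58 FPKM in *Dnmt1*-KO, a ratio of 0.655. The knockout is restricted to SMCs, and the part of other cells in these values was not tested.

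Goblet cells are secretory cells of the intestinal epithelium, which lies outside the tunica muscularis. They fill granules with the gel-forming mucin MUC2, and the released mucus separates the epithelium from bacteria and food. AGR2 is a protein disulfide isomerase of the endoplasmic reticulum that MUC2 needs for its assembly, and the protein of *Clca3*, FCGBP, ZG16 and TFF3 are secreted with the mucin. MUC13 is a mucin anchored in the cell membrane and is also found on absorptive enterocytes, so it is the least selective of the set.

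DNMT1 copies methylation at CG dinucleotides, and the stretches around the transcription start are shown for the members with an entry in the RefSeq promoter table (GRCm38.p6). Entries were found for *Muc2*, *Agr2*, *Fcgbp* and *Muc13*, and not for *Tff3*, *Clca3*, *Spink4* and *Zg16*. Each sequence runs 5′ to 3′ on the plus strand, the strand of all of these genes, from 250 bases before the start to 50 after it, and capitals mark CG dinucleotides. The windows are chr7:141690090-141690389 for *Muc2*, chr12:35992675-35992974 for *Agr2*, chr7:28070986-28071285 for *Fcgbp* and chr16:33793787-33794086 for the first of the 2 starts listed for *Muc13*.
Muc2: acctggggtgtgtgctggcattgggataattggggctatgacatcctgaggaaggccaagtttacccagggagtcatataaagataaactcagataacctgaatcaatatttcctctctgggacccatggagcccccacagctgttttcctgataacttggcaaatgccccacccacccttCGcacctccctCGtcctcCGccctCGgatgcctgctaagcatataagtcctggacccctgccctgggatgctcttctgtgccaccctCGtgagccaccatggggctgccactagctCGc
Agr2: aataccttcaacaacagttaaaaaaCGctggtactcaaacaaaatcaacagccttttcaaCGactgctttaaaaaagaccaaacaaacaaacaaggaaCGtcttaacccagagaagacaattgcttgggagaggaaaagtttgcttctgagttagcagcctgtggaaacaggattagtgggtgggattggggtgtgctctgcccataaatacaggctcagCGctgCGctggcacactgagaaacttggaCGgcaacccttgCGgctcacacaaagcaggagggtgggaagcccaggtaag
Fcgbp: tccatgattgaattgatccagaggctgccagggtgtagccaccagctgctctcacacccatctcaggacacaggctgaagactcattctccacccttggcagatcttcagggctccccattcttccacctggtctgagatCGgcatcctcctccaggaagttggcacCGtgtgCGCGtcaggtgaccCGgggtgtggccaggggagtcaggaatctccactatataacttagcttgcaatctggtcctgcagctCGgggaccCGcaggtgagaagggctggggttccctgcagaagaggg
Muc13: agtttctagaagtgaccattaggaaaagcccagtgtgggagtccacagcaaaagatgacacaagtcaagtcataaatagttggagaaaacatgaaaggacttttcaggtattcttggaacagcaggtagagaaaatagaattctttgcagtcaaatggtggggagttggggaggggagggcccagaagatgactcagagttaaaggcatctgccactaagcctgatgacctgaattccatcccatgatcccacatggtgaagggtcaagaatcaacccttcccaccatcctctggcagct
The *Muc2* window held 6 CG dinucleotides, the *Agr2* and *Fcgbp* windows 7 each and the *Muc13* window 0. The second *Muc13* start, chr16:33794239-33794538, held 4. Over the 32851 windows of the table the median was 7, and 5.43% held none. The E-box CAGCTG, the same on both strands, had its first base at position -112 in *Muc2* and -208 in *Fcgbp*, counted from the start, and was not among the letters of the *Agr2* and *Muc13* windows. It was present in 16.3% of all windows. TGTTTNC, searched on both strands as a FOXA motif, matched once in *Muc2*, *Agr2* and the first *Muc13* window, and matched 20.5% of all windows. TTTATG, searched on both strands as a CDX2 motif, matched once in *Agr2* and in the first *Muc13* window, against 11.9% of all windows. CACCC, searched on both strands as a KLF motif, matched in 4 places in *Muc2*, 3 in *Agr2* and 4 in *Fcgbp*, against at least 1 match in 57.5% of all windows. In *Muc2*, the E-box and the TGTTTNC match overlapped by 2 bases. Methylation of these windows was not analysed here.

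The 8 members did not move as a block. The ratio of *Dnmt1*-KO over *Dnmt1*-WT FPKM was 12.7 for *Spink4*, between 1.67 and 2.08 for *Muc13*, *Muc2* and *Tff3*, 1.29 for *Agr2*, close to 1 for *Fcgbp* and *Clca3*, and 0.606 for *Zg16*. With 1 library for each genotype no difference could be tested or set against a spread between replicates. Since the table gives no read counts, depth behind single genes is unknown and no interval is given.

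**Figure D1:**
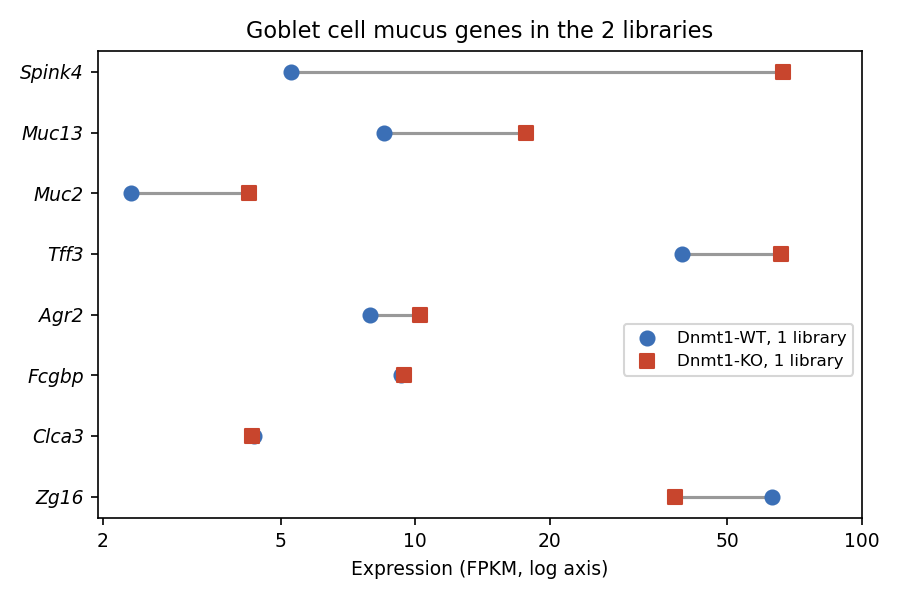
Expression of the 8 goblet cell mucus genes in FPKM on a log axis, with the Dnmt1-WT library as circles and the Dnmt1-KO library as squares, 1 library each, ordered by ratio. The longest line is that of Spink4, from 5.26 to 66.6 FPKM, and Zg16 is the only gene whose Dnmt1-KO square lies clearly to the left, at 38.22 against 63.1 FPKM.

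*Muc2*, which encodes the gel-forming mucin itself, had 2.31 FPKM in *Dnmt1*-WT and 4.24 FPKM in *Dnmt1*-KO, a ratio of 1.84. It was the lowest member in both libraries. *Muc2* is a protein-coding gene on the plus strand of chromosome 7 of GRCm38, from 141690340 to 141754693, and GENCODE release M21 lists 8 transcripts for it, the longest of 2926 bases. FPKM divide by the length of the transcript model, and the models behind the deposited values are not given in the sources used here, so the place of *Muc2* below the other members depends on that length. *Muc2* was the only member with more than 1 transcript variant, 2 in each library, and the other 7 had 1 in each.

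*Agr2*, the disulfide isomerase, is on chromosome 12 from 35992907 to 36004087. Its level was 7.94 FPKM in *Dnmt1*-WT and 10.24 FPKM in *Dnmt1*-KO, a ratio of 1.29. Centring on transcript length brought this ratio down to 1.06, an alternative chosen after the data were seen. *Agr2* kept the fifth place among the members in both libraries.

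*Tff3*, the trefoil factor secreted with the mucin, is on chromosome 17 from 31125306 to 31129646 and has a short transcript of 493 bases. It was listed at 39.55 FPKM in *Dnmt1*-WT and 66.05 FPKM in *Dnmt1*-KO, a ratio of 1.67. *Tff3* was the second most abundant member in both libraries and made up 28.2% of the summed FPKM of the 8 genes in *Dnmt1*-WT and 30.5% in *Dnmt1*-KO. Its share of the set therefore differed little between the genotypes, while its level was higher in *Dnmt1*-KO.

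*Clca3* and *Fcgbp* had nearly equal values in the 2 libraries. The table uses older names for the CLCA family: RefSeq gives Clca3 and gob-5 as former names of the gene now called *Clca1*, which encodes a protease of the mucus layer, on chromosome 3 from 145003817 to 145032776. *Clca3* was listed at 4.35 FPKM in *Dnmt1*-WT and 4.31 FPKM in *Dnmt1*-KO. The row that the table itself calls Clca1 corresponds to *Clca3a1*, another family member, and went from 0.14 to 1.33 FPKM. *Fcgbp*, which encodes a large protein bound to the mucin network, is on chromosome 7 from 28071236 to 28120862 and was listed at 9.29 and 9.44 FPKM. Neither gene has a direction that held: dividing by the FPKM sum put *Clca3* at 0.924 and *Fcgbp* at 0.947, and centring on the median put them at 1.01 and 1.04.

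*Zg16*, a lectin-like secreted protein that binds bacterial cell walls and was first known from pancreatic zymogen granules, was the one member clearly lower in *Dnmt1*-KO. It is on the minus strand of chromosome 7, from 127050156 to 127087328. *Zg16* was listed at 63.1 FPKM in *Dnmt1*-WT, the highest of the set, and at 38.22 FPKM in *Dnmt1*-KO, 39.4% lower. Its ratio was between 0.50 and 0.619 under the 7 scaling, centring and pseudocount alternatives. These raise its log2 ratio by too little, at most 0.03 by scaling or centring, to bring the ratio to 1. Of the 1334 genes within 1.5 times of its mean level, 71 had a smaller ratio.

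*Spink4*, a secreted inhibitor of serine peptidases of the Kazal type, differed most. It is on chromosome 4 from 40920052 to 40931395, with a longest transcript of 397 bases, the shortest of the set. *Spink4* was listed at 5.26 FPKM in *Dnmt1*-WT, the sixth of the 8, and at 66.6 FPKM in *Dnmt1*-KO, the first. Its ratio of 12.7 ranged from 10.5 to 12.9 over the alternatives. Over all genes above 0 FPKM in both libraries, 130 had a larger ratio, and among the 2859 genes within 1.5 times of its mean level there were 6. Its place by level among all genes went from 9036 to 1029.

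*Muc13*, the membrane-anchored mucin, is on chromosome 16 from 33794037 to 33819934. It was listed at 8.51 FPKM in *Dnmt1*-WT and 17.72 FPKM in *Dnmt1*-KO, a ratio of 2.08. A ratio this close to 2 crossed the limit with the scaling: it was 1.94 after dividing by the FPKM sum and 1.97 with a pseudocount of 1 FPKM.

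A ratio of 2 or more was thus reached by 2 of the 8 members, *Spink4* and *Muc13*, against 11.8% of the 16102 genes above 0 FPKM in both libraries, and a ratio of 0.5 or less by 0 members, against 4.98%. Among the 13769 genes that also reached 1 FPKM in at least 1 library, as all 8 members did, 9.14% had a ratio of 2 or more. A ratio of 1.5 or more was reached by 4 members, *Muc2* and *Tff3* besides these 2, against 19.7% of genes. With centring on transcript length *Tff3* was at 1.38 and fell short of this limit. A ratio above 1 was found for 6 of the 8, against 50.3% of the genes above 0 in both libraries. The 6 include *Fcgbp*, which fell below 1 after dividing by the FPKM sum, while *Clca3* rose above 1 after centring on the median. The median log2 ratio of the members, with 0.1 added to each FPKM, was 0.55, and that of all genes in the table was 0.00. Leaving out *Spink4* gave a median of 0.36 and leaving out *Zg16* gave 0.74. The summed FPKM of the 8 genes went from 140.31 to 216.82, a ratio of 1.55, and without *Spink4* from 135.05 to 150.22, a ratio of 1.11. Without *Zg16* it went from 77.21 to 178.6, a ratio of 2.31. The share of *Spink4* in the set went from 3.75% to 30.7%, and that of *Zg16* from 45% to 17.6%. Such sums and shares, like the place of *Muc2*, depend on the transcript lengths behind the FPKM.

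**Figure D2:**
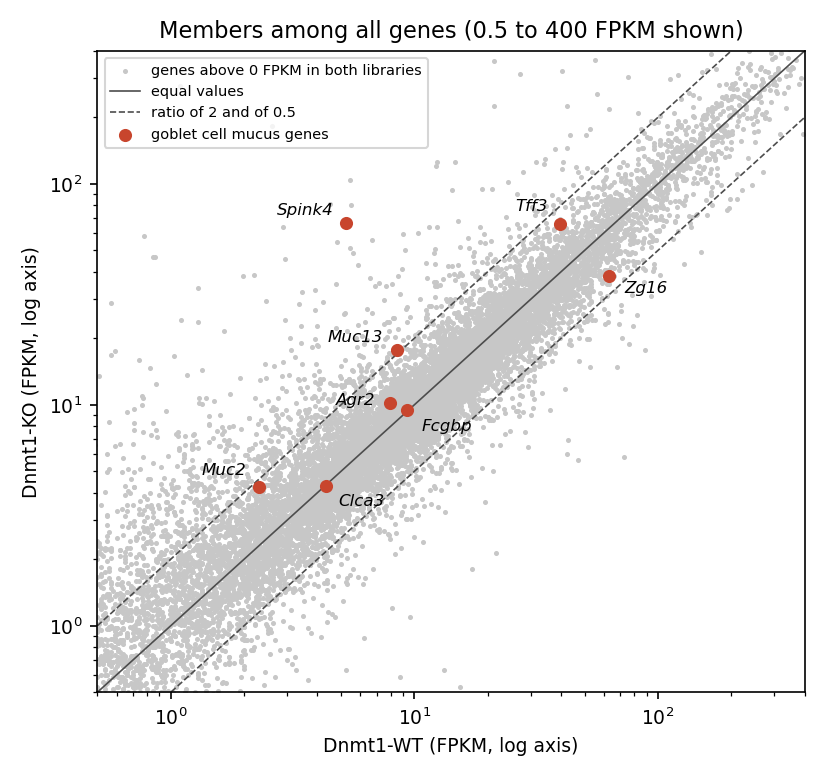
Dnmt1-KO against Dnmt1-WT expression in FPKM on log axes, for genes above 0 FPKM in both libraries in grey and the 8 goblet cell mucus genes in red. Spink4, with a ratio of 12.7, lies far above the dashed line for a ratio of 2, Muc13 lies on it at 2.08, and the other members lie between the dashed lines.

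Other genes of the goblet cell programme were described by lists. Of 16 genes for further secreted and granule proteins, 14 had values, and 8 of these were below 1 FPKM in both libraries. Among the 10 above 0 in both, 5 were at least doubled, against 11.8% of all genes, and none was at most halved. The list's median log2 ratio was 0.59. The number doubled and the median both depend on the low genes. With a minimum of 1 FPKM in at least 1 library 3 of the 6 left were doubled, against 9.14% of all genes. The median was then 1.35. Of the 3 doubled, *Dmbt1* and the row Clca1 pass this minimum only through *Dnmt1*-KO, so the minimum itself favours doubled genes. With a pseudocount of 1 FPKM 3 were doubled, against 4.86%, and the median was 0.12. *Dmbt1*, a scavenger receptor protein of mucosal secretions, went from 0.83 to 7.33 FPKM, and *Itln1*, a secreted lectin, from 1.07 to 7.23 FPKM. *Sytl2*, which acts in granule exocytosis, went from 6.59 to 7.23 FPKM, and *Rep15*, a Rab15 effector, from 1.43 to 1.02 FPKM. *Retnlb*, a goblet cell peptide induced by bacteria and worms, was listed at 0 in both libraries. The related trefoil genes were near the lower end, with *Tff1* listed at 0 in *Dnmt1*-WT and 0.69 FPKM in *Dnmt1*-KO and *Tff2* at 0.29 FPKM and listed at 0. The list also holds *Clca6*, at 1.28 and 1 FPKM, and the row Clca1, which corresponds to *Clca3a1*, at 0.14 and 1.33 FPKM. It holds rows named Clca2 and Clca4 as well, old names that each fit 2 genes of the family. The rows Clca1 and Clca4 are among the 5 counted as doubled.

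The transcription factors of the secretory lineage were close to the limit of the table, whose lowest value above 0 was 0.03 FPKM. *Atoh1*, which commits cells to this lineage, was listed at 0 in *Dnmt1*-WT and 0.04 FPKM in *Dnmt1*-KO, and *Spdef*, which drives goblet cell maturation, at 0.07 and 0.25 FPKM. *Foxa3* went from 0.05 to 0.46 FPKM, a ratio of 9.20 that rounding to 2 decimals alone would allow to lie between 8.27 and 10.3. Of the 9 genes of the list, 7 were below 1 FPKM in both libraries, and the 4 that were at least doubled, against 11.8% of all genes, were all among these. With a minimum of 1 FPKM in at least 1 library the count was 0, against 9.14%. *Klf4*, a factor also expressed in many other cells, was the highest at 13.37 and 18.78 FPKM, followed by *Nlrp6*, an inflammasome sensor, at 1.85 and 2.69 FPKM. The median log2 ratio of the list, 1.04, was set by the pseudocount and went from 0.25 with 1 FPKM to 2.17 with 0.01 FPKM.

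The enzymes and transporters that fold, glycosylate and hydrate mucins did not share a direction. All 15 had values. Among the 13 above 0 in both libraries 6 were higher in *Dnmt1*-KO, against 50.3% of all genes, and 7 were lower, against 7910 of 16102 genes. This split is close to that over all genes. At least doubled were 2, and the median log2 ratio was -0.02. The 2 doubled genes, against 11.8% of all genes, were below 1 FPKM in both libraries. The ion transporter gene *Slc12a2* was the highest, at 48.22 and 29.38 FPKM, and *C1galt1c1*, the chaperone of the core 1 O-glycan enzyme, was listed at 13.44 and 8.22 FPKM. *St3gal6*, a sialyltransferase, was at 9.77 and 9.62 FPKM and *Galnt12*, which starts O-glycans, at 1.86 and 2.32 FPKM. Many of these genes are also used outside goblet cells. *Ern2*, the endoplasmic reticulum stress sensor of mucous cells, was at 0.17 and 0.13 FPKM. Of the other membrane mucins, *Muc1* was listed at 0.55 and 0.82 FPKM, *Muc15* at 0.04 FPKM and 0, and *Muc4* at 0 in both. The search found no row for 5 more under the symbols used here.

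Smooth muscle genes were abundant in both libraries, with *Acta2* at 5408.13 and 4016.24 FPKM and *Myh11* at 2685.29 and 1255.51 FPKM. All 9 genes of the smooth muscle list were lower in *Dnmt1*-KO, as were 7910 of the 16102 genes above 0 in both libraries, with a median log2 ratio of -0.43. Markers of the epithelium were present as well. Of 14 pan-epithelial genes, 13 were higher in *Dnmt1*-KO, against 50.3% of all genes, and 7 at least doubled, against 11.8%, with a median log2 ratio of 1.04 and a summed level of 203.81 and 405.05 FPKM. With a pseudocount of 1 FPKM 4 were doubled, against 4.86% of all genes. The adhesion molecule gene *Epcam* went from 7.3 to 13.95 FPKM and the cadherin gene *Cdh1* from 1.45 to 3.51 FPKM. The keratin genes *Krt8*, at 24.61 and 57.53 FPKM, and *Krt19*, at 96.08 and 188.37 FPKM, are also expressed by mesothelium, whose own list had a median log2 ratio of 0.11 over 5 genes and summed to 274.38 and 284.88 FPKM. In whole tissue, fewer cells of a type and less RNA per cell cannot be told apart.

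Set against *Epcam*, which had a ratio of 1.91, the members fell into groups by value. The pan-epithelial genes themselves had ratios from 0.757 to 3.19, so these groups depend on the gene chosen and would differ with another. *Muc2*, *Tff3* and *Muc13* had ratios of 0.961, 0.874 and 1.09 times that of *Epcam*. *Agr2*, *Fcgbp* and *Clca3* had 0.675, 0.532 and 0.518 times it, and *Zg16* 0.317 times. *Spink4* had 6.63 times the ratio of *Epcam*, so it was at 0.721 of the *Epcam* level in *Dnmt1*-WT and at 4.77 times that level in *Dnmt1*-KO. In the enterocyte list 10 of 12 genes were higher in *Dnmt1*-KO, against 50.3% of all genes, and 2 were at most halved, against 4.98%, with a median log2 ratio of 0.75. Of these genes 5 were at least doubled, against 11.8% of all genes, and 2 after dividing by the FPKM sum, against 10.4%. *Vil1*, the brush-border villin gene, went from 6.78 to 11.83 FPKM, *Fabp1* from 42.13 to 145.49 FPKM, and *Sis*, the sucrase-isomaltase gene, from 1.93 to 0.51 FPKM. The part of epithelial RNA in the values of the members was not tested.

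Genes listed here for the Paneth cell, the secretory cell of the crypt base, were higher in *Dnmt1*-KO, as was *Spink4*. Not all of them are particular to that cell. All 9 genes were higher in *Dnmt1*-KO, with a median log2 ratio of 3.43. Their summed level was 24.05 FPKM in *Dnmt1*-WT and 263.69 FPKM in *Dnmt1*-KO. They include all 7 that were above 0 in both libraries, against 50.3% of all genes above 0 in both. The 7 genes above 0 in both libraries had ratios from 6.89 for *Defa17* to 26.2 for *Defa21*, a range that holds the 12.7 of *Spink4* and none of the other members. The same is true of the leukocyte list, whose 8 genes had ratios from 2.43 to 16.9. *Mmp7* and *Mptx2* were listed at 0 in *Dnmt1*-WT and at 0.77 and 1.83 FPKM in *Dnmt1*-KO. *Defa24*, the most abundant of these, went from 12.43 to 125.32 FPKM, and the intestinal lectin gene *Reg3g* from 0.87 to 12.41 FPKM. Defensin genes are near-identical copies, so how reads were split among them is uncertain. The part of Paneth cell or leukocyte RNA in the value of *Spink4* was not tested.

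Pancreatic acinar genes shared the direction of *Zg16* but not its size. All 7 with values were lower in *Dnmt1*-KO, and their summed level went from 43.93 to 3.6 FPKM, a ratio of 0.0819. They include all 3 that were above 0 in both libraries, against 7910 of the 16102 genes above 0 in both. These 3 had ratios from 0.0475 to 0.549, a range that does not hold the 0.606 of *Zg16*. *Cela1*, an elastase gene, was the nearest to it, at 4.26 and 2.34 FPKM, and made up most of what remained of the list in *Dnmt1*-KO. *Cela2a*, *Cpa1*, *Pnlip* and *Prss2* were listed at 0 in *Dnmt1*-KO, after 12.8, 2.72, 1.02 and 4.64 FPKM in *Dnmt1*-WT, and *Ctrb1* went from 13.26 to 0.63 FPKM. The part of acinar RNA in the value of *Zg16* was not tested.

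**Figure D3:**
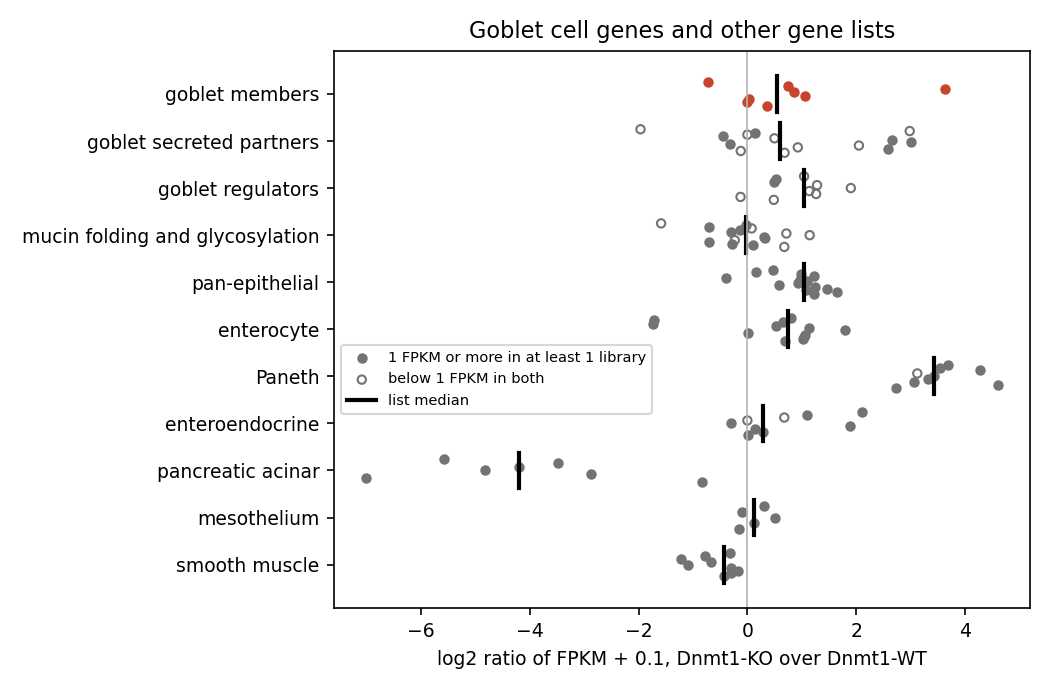
Log2 ratio of FPKM + 0.1, Dnmt1-KO over Dnmt1-WT, for the goblet cell mucus genes in red and for other gene lists in grey, 1 point per gene, with black bars at the list medians and open points for genes below 1 FPKM in both libraries. The goblet median of 0.55 lies between that of mucin folding and glycosylation genes (-0.02) and that of pan-epithelial genes (1.04), the Paneth list lies to the right at 3.43, and for acinar genes listed at 0 in Dnmt1-KO the distance to the left depends on the 0.1 added.

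Within each library the order of the members was stable apart from *Spink4*, *Zg16* and *Fcgbp*. *Tff3*, *Muc13*, *Agr2*, *Clca3* and *Muc2* were the second, the fourth, the fifth, the seventh and the eighth in both. *Fcgbp* went from the third to the sixth place, with nearly the same level in both libraries. The span from the lowest to the highest member was 27.3-fold in *Dnmt1*-WT and 15.7-fold in *Dnmt1*-KO. The genes nearest to the median profile of the members over the 2 libraries, by distance in log2(FPKM + 0.1), were *Otud1* (8.24 and 13.21 FPKM), *Aacs*, *Hsd3b7*, *Slc39a8* and *BC037034*, at distances from 0.029 to 0.073. This likeness rests on 2 values per gene.

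**Figure D4:**
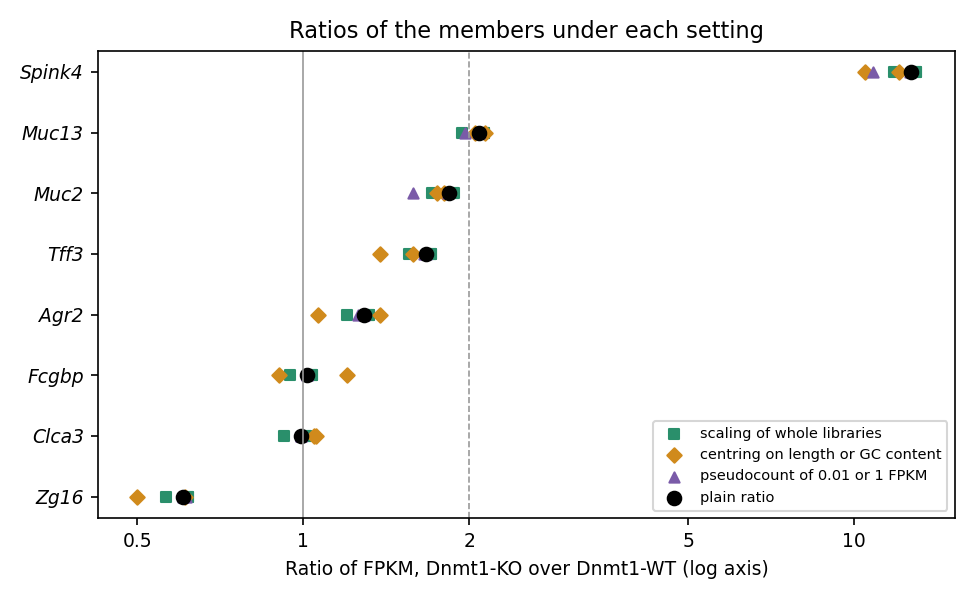
Ratio of Dnmt1-KO to Dnmt1-WT for each member on a log axis, as the plain ratio of FPKM (black circles) and under other scalings, pseudocounts and centring on transcript length or GC content, with lines at 1 and 2. Spink4 stays between 10.5 and 12.9 and Zg16 between 0.50 and 0.619, Clca3 and Fcgbp lie on both sides of 1, and Muc13 lies on both sides of 2.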

How the data were processed

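mRNA-seq libraries of jejunal tunica muscularis at 15 days of age, 1 for each genotype, were sequenced for the authors and mapped to GRCm38/mm10. The submitters' processing notes name TopHat 1.4.1 and Cufflinks 2.0.2, without roles. The deposited table gives, per gene symbol, FPKM rounded to 2 decimals, which the authors had already scaled to transcript length and mapped total, and the number of transcript variants in each library. The fold column deposited by the authors was not used. Read counts are not given, so depth and counting error per gene are unknown. No column of values lacked a sample.

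Samples were grouped by the genotype label. Plain ratios of FPKM were taken for genes above 0 in both libraries, and for a list the median of the log2 ratios was given, with a pseudocount of 0.1 FPKM. With 1 library per genotype no test was made. The members and lists were chosen with earlier results of these data known. The rule for named genes took all members, *Dnmt1*, *Epcam*, *Cdh1*, *Vil1*, the 5 genes nearest to the members' median profile and, from each list, the 3 with the highest FPKM and the 2 with the largest and the 2 with the smallest ratio among those at 1 FPKM or more in at least 1 library. *Il25*, *Retnlb*, *Tff1*, *Tff2*, *Atoh1*, *Spdef*, *Foxa3*, *Ern2*, *Mmp7*, *Mptx2*, *Cpa1*, *Pnlip* and *Prss2* are named beyond it, picked with their values in view. Not every gene that the rule took is described. Those left out include *Krt20* and *Treh*, both lower in *Dnmt1*-KO, and *Cdh17* and *Apoa4*, both higher. Scaling, pseudocount, filter and the row taken for *Clca3* were varied, and centring in 10 equal bins of transcript length or GC content and leaving out a member were added after the data were seen. Of the 18159 symbols, 17950 were matched to GENCODE M21 transcripts. Counting past a fold was tested on simulated data. Python 3.11.15, numpy 2.4.6, pandas 2.3.3 and matplotlib 3.10.9 were used.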

Additional observations from a re-analysis of the deposited data

How the results depend on the processing

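The number of members with a ratio of 2 or more, 2 of 8, became 1 after dividing each library by its FPKM sum, where 10.4% of all genes reach it, and 1 with a pseudocount of 1 FPKM, where 4.86% do, since *Muc13* lies near the limit, and 4 when a ratio of 1.5 or more was counted, which 19.7% of all genes reach. The median log2 ratio of the members stayed between 0.36 and 0.79 over all alternatives, the highest with the row Clca1 in place of Clca3, which has a ratio of 9.50 and brought the number of doubled members to 3. The other values, for single members and for lists, were each set against their value under each alternative. Of these comparisons 253 stayed within 1.5 times and 27 did not. No value at least doubled or at most halved in the reported setting reversed its direction. The shifts of whole libraries, between -0.10 and 0.03 in log2, are too small to reverse such a value. A pseudocount cannot reverse the direction of a gene either, so this outcome is no measure of how stable the directions are. Dividing by the FPKM sum shifted every log2 ratio by -0.10. Transcript length centring moved the 4 members with the shortest transcripts, *Spink4*, *Tff3*, *Zg16* and *Agr2*, by -0.28. No paired analysis was possible because each genotype has 1 library. For the same reason no library could be left out. Low values, such as those of *Atoh1* and *Spdef*, carry little weight because the reads behind them are unknown.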

Other observations

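The lists of the remaining epithelial cell types did not all have the same direction. Of 9 enteroendocrine genes, 6 of the 8 above 0 in both libraries were higher in *Dnmt1*-KO, against 50.3% of all genes, and 3 at least doubled, against 11.8%, with a median log2 ratio of 0.28. With a pseudocount of 1 FPKM 1 was doubled, against 4.86%. The secretin gene *Sct* went from 0.65 to 3.13 FPKM and the proglucagon gene *Gcg* from 0.42 to 1.81 FPKM, while *Gip* went from 4.09 to 3.29 FPKM. *Chga* and *Chgb*, granule protein genes that enteric neurons also express, were at 20.79 and 25.26 FPKM and at 31.59 and 34.75 FPKM. Of 5 tuft cell genes with values, 4 were higher in *Dnmt1*-KO, against 50.3% of all genes, and 1 was lower. The median log2 ratio was 0.24. The 1 at least doubled, against 11.8% of all genes, was *Il25*, near the lowest value of the table at 0.04 and 0.08 FPKM. The count was 0 or 2 under each of the 8 alternatives, where 4.86% to 12.1% of all genes doubled. The highest was *Dclk1* at 16.09 and 16.9 FPKM. Of 5 crypt base columnar genes, 1 was higher, against 50.3% of all genes, and 3 were lower, against 7910 of 16102 genes. Among the lower genes 1 was at most halved, against 4.98% of all genes. The median log2 ratio of the list was -0.37. *Olfm4* went from 1.02 to 4.55 FPKM, *Smoc2* from 174.7 to 101.67 FPKM and *Axin2* from 8.23 to 6.36 FPKM. In *Dnmt1*-WT, *Smoc2*, *Axin2* and *Dclk1* lay above *Epcam*, at 7.3 FPKM, and the part of epithelial RNA in their values was not tested. All 8 leukocyte genes were at least doubled, against 11.8% of all genes, with a median log2 ratio of 1.63 and a summed level of 68.16 and 538.26 FPKM, of which *Cd74* made up 21.19 and 357.75 FPKM.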
